A study of Mus musculus with 4 samples.

Results

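The 10 genes of the ErbB receptor family and its ligands that are described here are *Egfr*, *Erbb2*, *Erbb3* and *Erbb4* for the receptors and *Nrg1*, *Hbegf*, *Tgfa*, *Areg*, *Btc* and *Egf* for the ligands. They were chosen by gene symbol, and all 10 were among the 23997 genes of the deposited table. RNA-Seq was used to compare Lgr5+ progenitors with Lgr6+ progenitors, both sorted as EGFP+ cells from cochleae of C57BL/6 mice at postnatal day 3, in order to find genes that differ between these hair cell (HC) progenitors. The Lgr5+ progenitors came from Lgr5-EGFP-IRES-creERT2 mice and the Lgr6+ progenitors from Lgr6-EGFP-IRES-CreERT2 mice, so EGFP was driven by the *Lgr5* locus in the former and by the *Lgr6* locus in the latter, and the populations differ in reporter strain as well as in cell make-up. The paper describes Lgr6+ cells as some of the inner pillar cells and as part of the Lgr5+ population, which also takes in other cells. The comparison thus sets a part against a wider population. The labels list 2 libraries per population, 4 in all, and the methods describe a split of the RNA of each population into replicate fractions, which then share an extraction and whose number per population is higher than that of the labelled libraries, so it is not known how many libraries stand behind a value. The table holds 1 combined FPKM, a fragment count scaled by transcript length and by library size, for each gene and population, so the spread between libraries is not known, no test of a difference was possible and each difference below has no replicate check. The populations are called Lgr5+ and Lgr6+ cells from here on.

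ErbB receptors are receptor tyrosine kinases that act in pairs. Egfr binds Egf, Tgfa, Areg, Btc and Hbegf, Erbb4 binds neuregulins as well as Btc and Hbegf, and Erbb3 binds neuregulins but has little kinase activity of its own. Erbb2 has no known ligand and acts as the partner of the other receptors. The ligands are made as membrane-bound precursors that proteases release, and the active receptors signal through the Ras-MAPK cascade and through PI3K and Akt. In the inner ear, neuregulin signalling through Erbb2 and Erbb3 is known for its role in the Schwann cells of the cochlear nerve, and Egf is a usual supplement of the medium in which cochlear progenitors form spheres.

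Of these 10 genes *Erbb2* was the only one that was at least 1.5-fold higher in Lgr5+ cells, and *Egf*, *Btc*, *Tgfa* and *Erbb4* were at least 1.5-fold higher in Lgr6+ cells, directions in which 23.3% and 28.5% of all genes at an FPKM of 1 or more in either population also differed by that much. *Hbegf*, the most abundant ligand, had nearly the same FPKM in both populations, and *Egfr* was 1.42-fold higher in Lgr6+ cells. *Erbb3*, *Nrg1* and *Areg* were below an FPKM of 1 in both populations. Folds for calls are on the log2(FPKM + 1) scale, a log2 change is the Lgr6+ value minus the Lgr5+ value on that scale, and the added 1 makes the change of weakly expressed genes look smaller. In bulk RNA, fewer cells of a type and less RNA per cell cannot be told apart. Values given in pairs are FPKM, with Lgr5+ cells first, and gene positions are those of the table, which match GRCm38 (mm10).

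**Figure D1:**
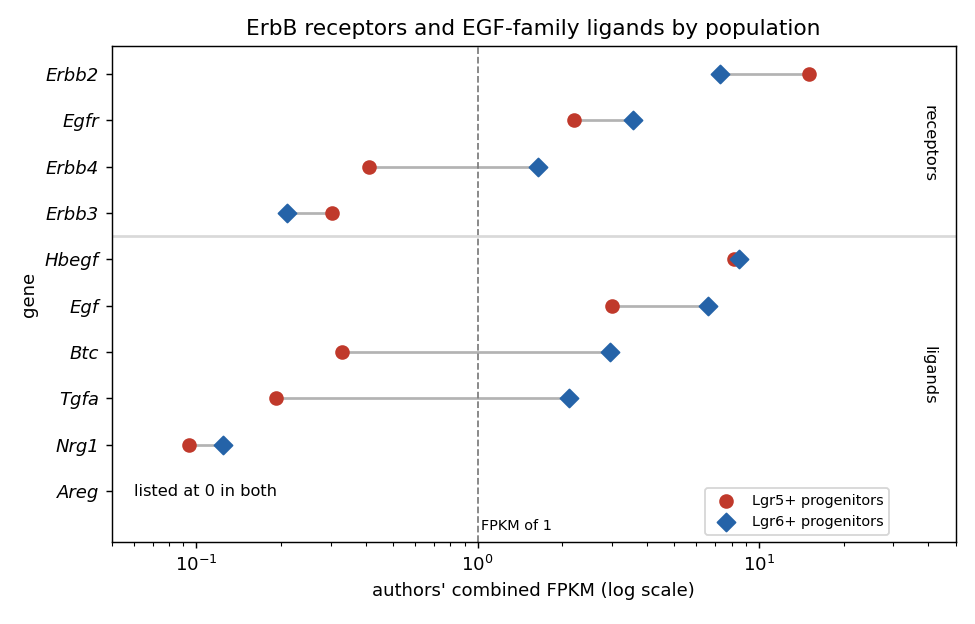
FPKM of each receptor and ligand in Lgr5+ (circles) and Lgr6+ cells (diamonds), as combined by the authors, on a log axis, with a dashed line at an FPKM of 1. *Erbb2* had 15.1 in Lgr5+ and 7.27 in Lgr6+ cells, while *Btc* and *Tgfa* crossed the line from 0.330 to 2.95 and from 0.193 to 2.11, and *Areg* was listed at 0 in both. No error bars can be drawn because each point is a single combined value.

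The sequences before the start sites of *Erbb2* and *Btc* are shown because these genes lie at the ends of the range of differences, a choice made after their values were seen. Each is the 250 bases before the gene's start in RefSeq on GRCm38.p6, written 5′ to 3′ on the gene's strand, with each CpG dinucleotide in capitals. The *Erbb2* stretch is chr11:98412234-98412483 on the plus strand and the *Btc* stretch is chr5:91402995-91403244 on the minus strand.
Erbb2: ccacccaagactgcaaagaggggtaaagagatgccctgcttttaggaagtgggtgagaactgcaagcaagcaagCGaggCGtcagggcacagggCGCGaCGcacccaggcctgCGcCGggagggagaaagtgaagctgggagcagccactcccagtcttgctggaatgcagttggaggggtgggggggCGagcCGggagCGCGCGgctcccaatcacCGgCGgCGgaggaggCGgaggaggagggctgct
Btc: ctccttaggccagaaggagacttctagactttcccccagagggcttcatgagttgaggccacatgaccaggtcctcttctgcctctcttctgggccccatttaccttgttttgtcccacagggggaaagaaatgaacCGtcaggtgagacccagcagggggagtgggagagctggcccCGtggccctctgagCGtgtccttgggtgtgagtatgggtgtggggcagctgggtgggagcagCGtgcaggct

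The *Erbb2* stretch held 16 CpG dinucleotides and was 66.0% G and C. The *Btc* stretch held 4 CpG dinucleotides at 59.6% G and C. Over 32851 stretches of the same length before RefSeq starts the medians were 6 CpG dinucleotides and 52.4% G and C, and 25.4% of the stretches held at least as many as that of *Erbb2*. The GC box GGGCGG, searched on both strands, was found in neither stretch, against 32.7% of all stretches with at least 1. The letters TATAAA of the TATA box, TGANTCA of AP-1 sites and CTTTGA of Lef/Tcf sites, also on both strands, were in neither stretch and in 12.4%, 6.75% and 13.8% of all stretches.

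Among the receptors, *Erbb2* had the highest FPKM in both populations. *Erbb2*, within a locus on chromosome 11 from 98412484 to 98438988, had 15.1 FPKM in Lgr5+ cells against 7.27 in Lgr6+ cells, a log2 change of -0.96 and a ratio of FPKM of 2.07 toward Lgr5+ cells. Its level stood at percentile 64.8 of the genes with an FPKM above 0 in Lgr5+ cells and at percentile 50.2 in Lgr6+ cells. The table gives the same locus to *Mien1*, a neighbour with an FPKM of 213.8 in Lgr5+ and 180.3 in Lgr6+ cells, whose RefSeq interval shares 9 bases with that of *Erbb2*. The counting was not stated to use strand, so fragments at this border cannot be assigned with certainty.

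*Egfr*, on chromosome 11 from 16752203 to 16913907, encodes the receptor of the Egf-type ligands and had an FPKM of 2.20 in Lgr5+ and 3.56 in Lgr6+ cells. Its log2 change of 0.51 lay under the 1.5-fold threshold of 0.58 and was the nearest to it from below. *Erbb4*, on chromosome 1 from 68039966 to 69108059, encodes a receptor of neuregulins and had 0.410 and 1.64, a log2 change of 0.90, which was the nearest to the threshold from above. Both calls turned on the setting, since *Egfr* reached a log2 change of 0.67 with a pseudocount of 0.1 and *Erbb4* dropped to 0.47 after quantile normalization. *Erbb3*, on chromosome 10 from 128569368 to 128589501, had 0.304 in Lgr5+ and 0.209 in Lgr6+ cells and stood near percentile 10.3 and percentile 9.22 of the detected genes.

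Because *Erbb2* was lower and *Egfr* and *Erbb4* were higher in Lgr6+ cells, the make-up of receptor expression differed, which multiplying all values of a population by a constant cannot alter. *Erbb2* made up 83.8% of the summed receptor FPKM in Lgr5+ cells and 57.3% in Lgr6+ cells. The share of *Egfr* was 12.2% and 28.1%, and that of *Erbb4* was 2.28% and 12.9%. Within Lgr5+ cells the FPKM of *Erbb2* was 6.84 times that of *Egfr*, and within Lgr6+ cells it was 2.04 times. The summed FPKM of the 4 receptors was 17.98 in Lgr5+ and 12.7 in Lgr6+ cells, and without *Erbb2* it was 2.92 and 5.41.

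**Figure D2:**
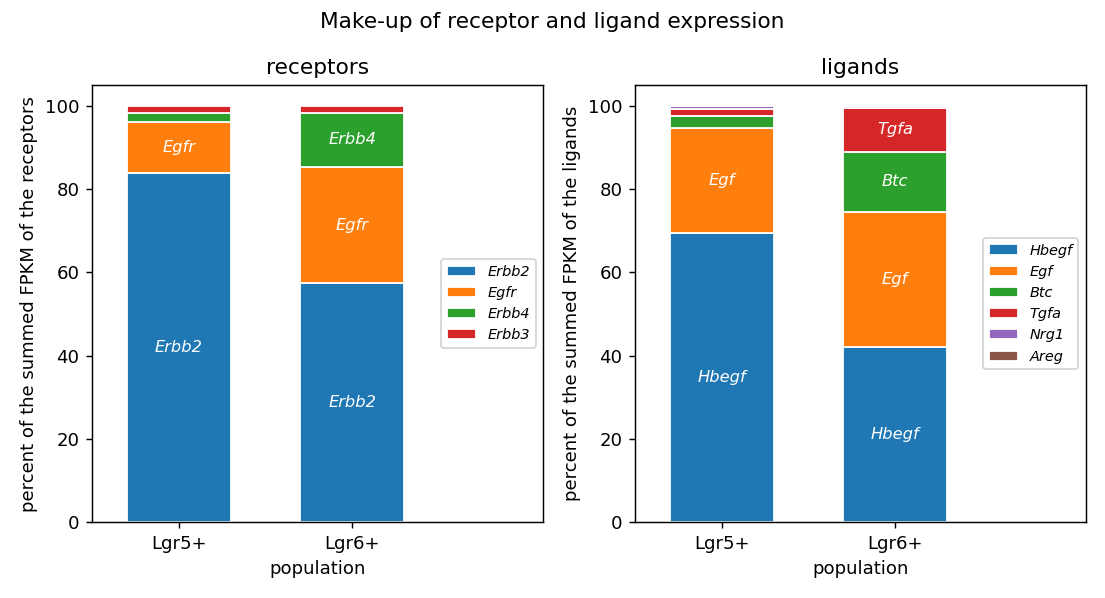
Share of each gene in the summed FPKM of the 4 receptors (left) and of the 6 ligands (right), in percent, for Lgr5+ and Lgr6+ cells, with 1 combined value behind each segment. The segment of *Erbb2* goes from 83.8% to 57.3% and that of *Hbegf* from 69.3% to 41.96%, with larger segments of *Egfr*, *Erbb4*, *Egf*, *Btc* and *Tgfa* in Lgr6+ cells.

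*Hbegf* encodes heparin-binding EGF-like growth factor, a ligand of Egfr and Erbb4. On chromosome 18 from 36504927 to 36515805, it reached 8.17 FPKM in Lgr5+ and 8.52 FPKM in Lgr6+ cells. Its log2 change of 0.054 was the smallest among the ligands that reached an FPKM of 1, and the sign turned to -0.040 after quantile normalization. *Egf*, the prototype ligand of Egfr, lies within a locus on chromosome 3 from 129677575 to 129763882 and had 2.995 in Lgr5+ and 6.595 in Lgr6+ cells, a log2 change of 0.93. The uncharacterized gene *6330410L21Rik*, which shares this locus and 1565 bases in RefSeq, had 0.562 and 0.286, lower than *Egf* in both populations.

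*Btc* (betacellulin, a ligand of Egfr and Erbb4), on chromosome 5 from 91357261 to 91402994, reached 0.330 FPKM in Lgr5+ and 2.95 FPKM in Lgr6+ cells. *Tgfa* (transforming growth factor alpha, a ligand of Egfr), on chromosome 6 from 86195251 to 86275449, had 0.193 and 2.11. Their log2 changes of 1.57 and 1.38 were the largest of the family, and their ratios of FPKM without a pseudocount were 8.95 and 10.9. Both genes stood low in Lgr5+ cells, at percentile 10.9 and percentile 7.78 of the detected genes, and at percentile 32.9 and percentile 28.01 in Lgr6+ cells. Under the other settings the difference of *Erbb2* moved little, whereas the sizes of those of *Btc* and *Tgfa* followed the pseudocount, as the plot of the settings shows.

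**Figure D3:**
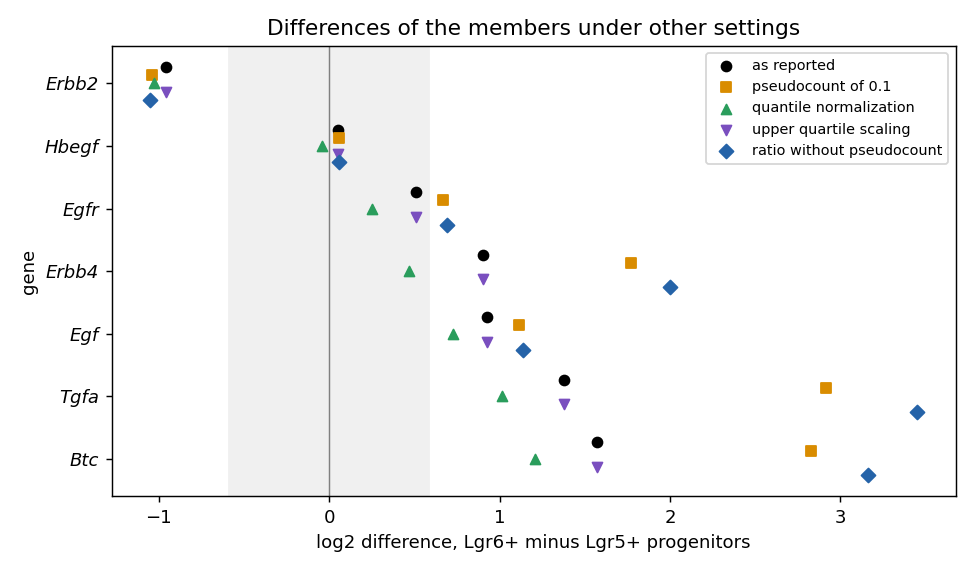
log2 difference (Lgr6+ minus Lgr5+ cells) of the 7 expressed genes of the family (FPKM of 1 or more in either population), as reported and under 4 other settings, with the band under 1.5-fold shaded. *Erbb2* stays between -1.05 and -0.96, while *Btc* ranges from 1.21 to 3.16 and *Tgfa* from 1.01 to 3.45.

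*Nrg1* encodes neuregulin 1, a ligand of Erbb3 and Erbb4, and had an FPKM of 0.0942 in Lgr5+ and 0.125 in Lgr6+ cells. The interval of *Nrg1* in the table, on chromosome 8 from 31818028 to 31918203, covers 9.24% of the span of the gene in RefSeq on GRCm38, whereas each of the other 9 intervals covers 91.05% or more of its gene. The value of *Nrg1* therefore does not speak for transcripts whose exons lie outside the interval. *Areg* (amphiregulin, a ligand of Egfr), on chromosome 5 from 91139615 to 91148432, had values of 0 for both populations.

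The summed FPKM of the 6 ligands was 11.8 in Lgr5+ and 20.3 in Lgr6+ cells, a ratio of 1.72. Without *Hbegf* the sums were 3.61 and 11.8, so the difference lay in *Egf*, *Btc* and *Tgfa*. *Egf*, *Tgfa* and *Areg*, which bind Egfr and not Erbb4, summed to 3.19 and 8.70, and *Hbegf* and *Btc*, which bind both, summed to 8.501 and 11.5. The share of *Hbegf* in the ligand sum was 69.3% in Lgr5+ and 41.96% in Lgr6+ cells. In order of FPKM the 4 highest genes of the family were *Erbb2*, *Hbegf*, *Egf* and *Egfr* in Lgr5+ cells and *Hbegf*, *Erbb2*, *Egf* and *Egfr* in Lgr6+ cells. Whether neighbours in these orders differ beyond the spread between libraries is not known.

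Of the 10 genes, 7 reached an FPKM of 1 in either population, and genes that did so are called expressed here. Of these 7, 4 were at least 1.5-fold higher in Lgr6+ cells, as were 28.5% of all 13436 expressed genes, and 1 was higher in Lgr5+ cells, as were 23.3%. *Erbb4*, *Btc* and *Tgfa* reached that level through Lgr6+ cells alone, so their direction was fixed by the filter. Among genes whose higher FPKM was from 1 to under 10, 37.0% were at least 1.5-fold higher in Lgr6+ and 20.9% in Lgr5+ cells. With a higher FPKM of at least 10, where *Erbb2* is the only gene of the family, these shares were 22.0% and 25.2%. *Egfr*, *Erbb2*, *Hbegf* and *Egf* reached an FPKM of 1 in each of the populations, and of these 4, *Egf* was past 1.5-fold toward Lgr6+ cells and *Erbb2* toward Lgr5+ cells, against 21.4% and 22.5% of the 11177 genes at that level. The median log2 change of the 4 was 0.28, and that of the 11177 genes was -0.029.

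**Figure D4:**
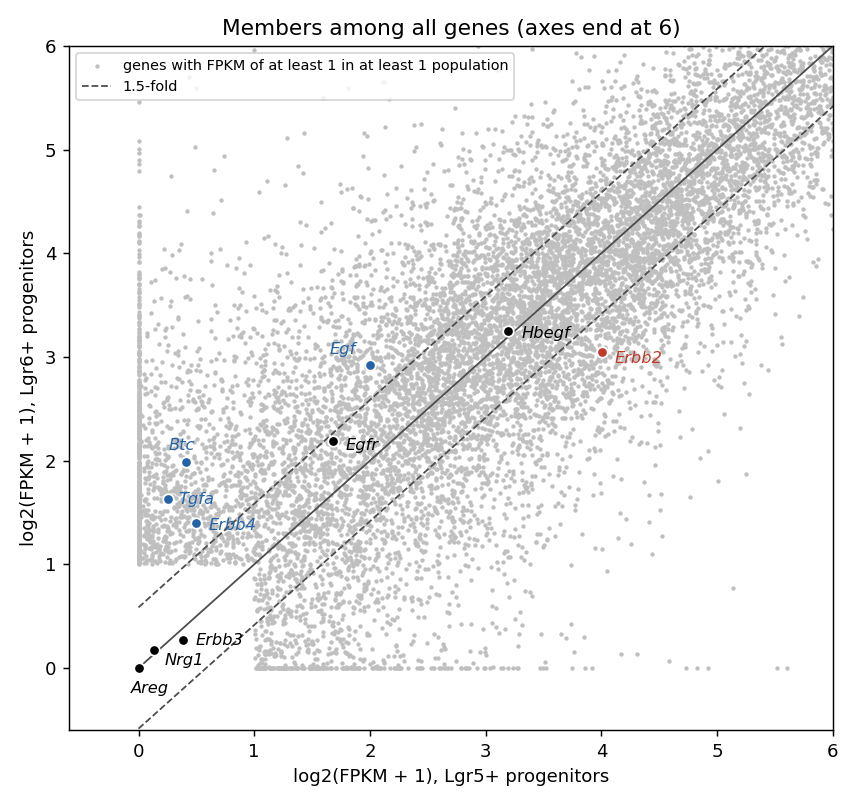
log2(FPKM + 1) of each gene in Lgr5+ cells (x axis) and Lgr6+ cells (y axis), with the 10 genes of the family labelled over all expressed genes (FPKM of 1 or more in either population, grey) and dashed lines at 1.5-fold; the axes end at 6. *Egf*, *Erbb4*, *Tgfa* and *Btc* lie above the upper line and *Erbb2* below the lower line, all within the grey cloud of the other genes.

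Some of the low values of the family correspond to few counting steps. Low FPKM values multiplied by transcript length fall on steps, and for 7990 genes with 1 annotated transcript 94 products lay at a step of 0.128 FPKM kilobases in Lgr5+ cells, against 10 beside it, and 39 at a step of 0.0399 in Lgr6+ cells, against 7.5 beside it. The Lgr5+ step was 3.21 times the Lgr6+ step, which would be a ratio of depth only if a step stood for 1 fragment in each population. With the longest annotated transcript, *Tgfa* stood at 5.37 steps in Lgr5+ and 188 in Lgr6+ cells, and *Btc* at 6.70 and 192. *Erbb4* stood at 38.01 and 487, *Erbb3* at 13.9 and 30.5, and *Nrg1* at 1.40 and 5.94. *Erbb2* stood at 567 and 877 steps. It is unknown whether a step stands for 1 fragment of a single library.

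The populations also differed in markers of other cell types, whose part in the differences of *Egf*, *Btc*, *Tgfa*, *Erbb4* and *Erbb2* was not tested. Beside the marker counts here and in the next paragraph, 28.5% of all expressed genes were higher in Lgr6+ and 23.3% in Lgr5+ cells. Where a counted marker stood below an FPKM of 1 in 1 of the populations, its direction was fixed by the filter. All 7 macrophage markers were at least 1.5-fold higher in Lgr6+ cells, where they summed to an FPKM of 211.7 against 3.31 in Lgr5+ cells, in which *C1qb*, *C1qc*, *Tyrobp*, *Csf1r* and *Aif1* were listed at 0. Of 6 endothelial markers 5 were higher in Lgr6+ cells and 1, *Tie1*, with 2.09 and 0.999, was higher in Lgr5+ cells. The endothelial list had sums of 7.05 and 52.2, with *Kdr* listed at 0 in Lgr5+ cells. Of 7 mesenchyme markers 3 were higher in Lgr6+ cells, with sums of 146.3 and 243.3. Of the 7 hair cell markers that the table lists, 4 were higher in Lgr6+ cells, with sums of 1395 and 1818, and none was listed at 0. The largest log2 changes among these were those of *Otof*, with 41.6 and 171.0, and *Gfi1*, with 19.5 and 55.5. *Atoh1*, *Cib2* and *Pvalb* were under 1.5-fold, and *Pvalb*, with 476.9 and 408.4, was lower in Lgr6+ cells. Erythroid markers went the other way, with 4 of 5 higher in Lgr5+ cells and sums of 629.4 and 108.05. All 9 supporting cell markers were detected in both populations, and *Sox2*, *Jag1* and *Ngfr* were at least 1.5-fold higher in Lgr5+ cells while *Lfng* was higher in Lgr6+ cells. *Lgr5* had an FPKM of 9.65 in Lgr5+ and 24.99 in Lgr6+ cells and *Lgr6* had 2.06 and 2.90, so neither gene was higher in the population labelled Lgr5+.

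*Erbb3* is the neuregulin receptor of Schwann cells, so its low values can be set beside 8 Schwann cell and glial markers, of which 3 were higher in Lgr6+ cells, with sums of 602.2 and 1610. *Mbp*, which encodes a protein of the myelin sheath, had an FPKM of 10.7 in Lgr5+ and 67.4 in Lgr6+ cells, and *Fabp7*, a fatty acid binding protein and the highest of the list, had 445.6 and 1370.4. *Sox10* had 39.5 and 50.5, a gene that cochlear supporting cells also express. *Erbb3* was not higher in Lgr6+ cells beside these genes, and *Cdh19* and *Pmp2* were listed at 0 in Lgr5+ and *Foxd3* in Lgr6+ cells. Of 8 neuronal markers 2 were higher in each population, with sums of 95.5 and 124.7, and *Prph* was listed at 0 in Lgr5+ and *Scn9a* in Lgr6+ cells. *Snap25* and *Prph* were the ones higher in Lgr6+ cells, with *Snap25* at 7.63 and 53.4, and *Mapt*, at 2.55 and 0.0917, and *Tubb3*, at 1.18 and 0.0959, were those higher in Lgr5+ cells. The melanocyte list summed to 4.52 and 6.47, and its defining genes *Tyrp1* and *Mlana* were listed at 0 in both, as was *Dct* in Lgr5+ cells against 0.681 in Lgr6+ cells. *Pmel*, with 0.318 and 3.03, was higher in Lgr6+ cells and *Mitf*, with 1.18 and 0.121, in Lgr5+ cells.

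Among the other ligands of the family, only *Nrg4* reached an FPKM of 1 in either population. *Nrg4*, a ligand of Erbb4, had an FPKM of 1.28 in Lgr5+ and 0.0909 in Lgr6+ cells, a log2 change of -1.06. It passed the filter through Lgr5+ cells alone and *Erbb4* through Lgr6+ cells alone, so the filter fixed both directions. *Nrg2*, *Ereg* and *Epgn* were listed at 0 in both populations, and *Nrg3* had 0.0343 in Lgr5+ cells and was listed at 0 in Lgr6+ cells. No ligand of Erbb3 thus reached an FPKM of 1 in either population in the intervals counted.

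The list for ligand shedding holds 6 genes, both proteases and genes that promote or inhibit their action, so its count mixes opposite roles. All 6 reached an FPKM of 1 in each, and 2 of them were at least 1.5-fold higher in Lgr6+ cells, against 28.5% of all expressed genes. *Timp3*, which encodes an inhibitor of the sheddase Adam17, had 5.81 in Lgr5+ and 18.04 in Lgr6+ cells, and *Rhbdf2*, which encodes a partner needed for Adam17 maturation, had 9.25 and 16.6. *Adam17* itself had 6.56 and 7.04, and *Adam10*, the highest of the list, had 38.9 and 42.02. *Rhbdf1* had 27.9 and 26.1.

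Downstream of the receptors, all 17 genes of the adaptors and the Ras-MAPK cascade were expressed, of which 4 were at least 1.5-fold higher in Lgr6+ and 2 in Lgr5+ cells. For both lists of this paragraph, the shares over all expressed genes were 28.5% and 23.3%. *Sos1*, a Ras exchange factor, had 4.16 and 7.52 and *Araf*, a Raf kinase, had 45.95 and 71.6, whereas *Hras* had 54.8 and 31.4 and *Nras* had 25.5 and 16.3. *Map2k2* was the highest of the list at 92.4 and 66.3. Of 11 genes of the PI3K-Akt arm, 2 were higher in Lgr6+ cells and 1 in Lgr5+ cells. *Pdpk1*, the kinase that activates Akt, had 4.61 and 8.69 and *Pik3r1*, a regulatory subunit of PI3K, had 2.999 and 5.10. *Rps6kb1*, the S6 kinase downstream of mTOR, had 17.3 and 6.84. *Pik3cb* had 4.86 and 2.91 and *Akt1*, the highest of the list, had 74.3 and 54.1, both under 1.5-fold on the log2(FPKM + 1) scale.

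Of the 10 negative regulators, 3 were at least 1.5-fold higher in Lgr6+ cells and 1 in Lgr5+ cells, against 28.5% and 23.3% of all expressed genes. *Cbl*, a ubiquitin ligase that targets activated Egfr, had 0.147 in Lgr5+ and 2.28 in Lgr6+ cells, and *Lrig1*, which lowers the level of ErbB receptors, had 3.003 and 5.98. Of the 3 higher in Lgr6+ cells, only *Lrig1* reached an FPKM of 1 in each population. The others, *Cbl* among them, passed the filter through Lgr6+ cells alone, so the filter fixed their direction. *Ptpn1*, a tyrosine phosphatase, had 19.7 and 12.6, and *Lrig3* had 5.61 and 5.38.

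The ERK-responsive genes stood mostly on the side of Lgr5+ cells. Of 15 genes 13 were expressed, and 8 of these were at least 1.5-fold higher in Lgr5+ and 2 in Lgr6+ cells, against 23.3% and 28.5% of all expressed genes. The median log2 change of the 13 was -0.68, against 0.035 for all 13436 genes. *Dusp4*, a phosphatase of MAP kinases, had 3.62 in Lgr5+ and 0.0802 in Lgr6+ cells, and *Etv5*, an ETS transcription factor, had 14.6 and 4.97. *Egr1*, an immediate early gene and the highest of the list, had 441.9 and 274.6. *Myc* had 0.0740 in Lgr5+ and 1.32 in Lgr6+ cells, and *Spry4* was listed at 0 in Lgr5+ and had 1.58 in Lgr6+ cells. *Dusp4* passed the filter through Lgr5+ cells alone, and *Myc* and *Spry4* through Lgr6+ cells alone, so the filter fixed their directions. The ERK-responsive genes respond to many growth factors, so their values are not a readout of ErbB receptors alone. Over all 6 lists of other pathway genes, 58 of 64 genes were expressed, of which 22.4% were higher in Lgr6+ and 22.4% in Lgr5+ cells, against 28.5% and 23.3% of all expressed genes.

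**Figure D5:**
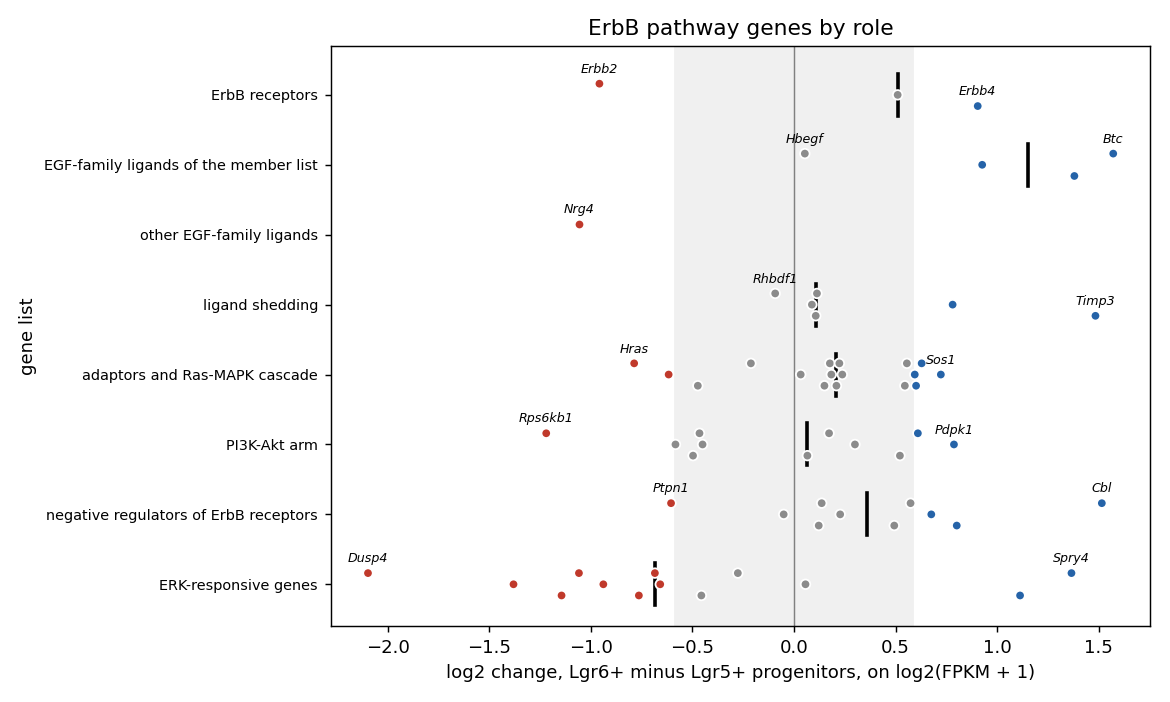
log2 change of each expressed ErbB pathway gene (FPKM of 1 or more in either population), by role, on the log2(FPKM + 1) scale, with the band under 1.5-fold shaded, the list medians as black bars and the genes at both ends of each list labelled. Blue points are at least 1.5-fold higher in Lgr6+ and red points in Lgr5+ cells, and 8 of the 13 ERK-responsive genes lie on the red side.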

How the data were processed

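The FPKM values are those that the authors deposited, 1 combined value for each gene in each population. The authors used the SMART-Seq v4 kit for cDNA, Trimmomatic for trimming, TopHat for mapping, RefGene as annotation and Cufflinks for FPKM. The methods name mm9 and the submitters' processing notes name mm10, and the positions of these genes in the table fit GRCm38 (mm10). Fold changes, *p*-values and *q*-values of the authors' own comparison are also in the table and were not used. The genes and lists were chosen with earlier results of these data known.

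Genes that reached an FPKM of 1 in either population were compared as log2(FPKM + 1), and a gene was called higher when it differed by at least 1.5-fold. No *p*-value was calculated, since there is 1 value per population. Every gene of the family was named, and of each other pathway list the 2 highest and 2 lowest log2 changes and the highest FPKM, whereas the marker genes named were chosen after their values were seen. Interval starts were raised by 1 base to count from 1. *Ccer2*, a listed hair cell marker, had no match in the table, and some listed genes are not reported here. Transcript lengths for the steps were those of GENCODE vM1 less 200 bases, and products within 2% of a step were counted. The paper gives reads per sample only as a range over all samples. The depth of each library is therefore unknown, and no counting intervals are given. Alternatives were a pseudocount of 0.1, no filter, a minimum FPKM of 5, quantile normalization, upper quartile scaling, a ratio without pseudocount, a 2-fold threshold and, chosen after seeing the data, an FPKM of 1 reached in each population. Python 3.11.15, numpy 2.4.6, pandas 2.3.3 and matplotlib 3.10.9 were used. The calling rule was checked on simulated data with set 2-fold changes and no noise, which does not speak for spread between libraries.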

Additional observations from a re-analysis of the deposited data

How the results depend on the processing

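The number of genes of the family at least 1.5-fold higher in Lgr6+ progenitors was 4, against 28.5% of all genes that passed the filter. It was 1 with a minimum FPKM of 5 (24.1% of all), 1 with an FPKM of 1 reached in each population (21.4%), 2 with a 2-fold threshold (18.2%), 3 after quantile normalization (25.5%), and 5 with a pseudocount of 0.1 (31.3%) and with the ratio without pseudocount (28.9%). The number higher in Lgr5+ progenitors was 1, and 0 with the 2-fold threshold (11.7% of all). The median log2 change of the 7 genes of the family that passed the filter was 0.90, against 0.035 for all genes that did. Of these 7, 3 passed through Lgr6+ progenitors alone, which raises the family's median. The family's median was 0.28 with no filter, 0.054 with a minimum FPKM of 5 and 0.28 with an FPKM of 1 reached in each population, settings under which other genes are counted. The number of other pathway genes past the threshold was 26 of 58, and 10 of 58 at 2-fold, where 18.2% of all genes were higher in Lgr6+ and 11.7% in Lgr5+ progenitors. Of 42 log2 changes of single genes of the family under alternatives, 41 kept their sign, the exception being *Hbegf* after quantile normalization. A change of filter or pseudocount cannot turn a sign, and upper quartile scaling multiplied the Lgr6+ values by only 0.999. Quantile normalization was thus the only alternative likely to turn a sign, so the count of 41 is no measure of stability. No paired analysis was possible because the table holds 1 combined value per population, and for the same reason leaving out each replicate was not run. The depth of single libraries is unknown, and *Nrg1* in both populations and *Tgfa* and *Btc* in Lgr5+ cells stood at under 7 counting steps each.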
